A study of Mus musculus with 18 samples.

Results

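Replication-dependent histone genes were described across 18 libraries of mouse knee cartilage RNA from an anterior cruciate ligament (ACL) rupture model. They were taken as the protein-coding genes whose symbol places them in one of the mouse histone clusters Hist1 to Hist4 and in the H1, H2A, H2B, H3 or H4 family, which gave 67 genes of the 49184 genes in the files. Of these, 6 encode H1, 18 H2A, 18 H2B, 12 H3 and 13 H4. The mice were wild-type C57bl6 males aged 12 weeks. The right knee was loaded once until the ligament ruptured, and the cartilage caps of that knee and of the unloaded left knee were taken on day 1 or day 7. The groups were day 1 injured, day 1 contralateral, day 7 injured and day 7 contralateral knees (n = 3 libraries each) and knees of naïve mice that were not loaded (n = 6 libraries). Every naïve library is labelled day 7, so that comparisons of day 1 knees with naïve knees also differ in the labelled day. Every library was a pool of knees from several mice, and the sources differ on how many mice were pooled. The 6 naïve libraries share mice, so that p-values measure the spread between libraries, which is not the spread between animals. RNA was depleted of ribosomal RNA and not selected for poly(A) tails, so that histone transcripts without a tail were kept.

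Core histones H2A, H2B, H3 and H4 form the protein spool that DNA is wound around, and the linker histone H1 binds where DNA enters and leaves the spool. Replication-dependent genes supply these proteins during S phase, when newly copied DNA has to be packed. Their messages are unusual in that they end in a conserved stem-loop in place of a poly(A) tail, which is bound by the protein SLBP for processing, translation and decay. Replication-independent variants such as H3.3 and H2A.Z are made throughout the cell cycle from ordinary polyadenylated messages. Articular chondrocytes in adult cartilage seldom divide, whereas the marrow beneath holds dividing blood precursors.

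Depth ranged from 16074762 to 41794005 estimated counts per library, and the histone genes took between 0.837% and 1.998% of them. Levels were compared between libraries as TMM-scaled read counts relative to library size (CPM), and between genes as TPM, which also divides by transcript length. Chondrocyte markers were present in every library, with Col2a1, the collagen of cartilage, between 254 and 676 TPM. They were accompanied by a much larger erythroid signal, with the globin gene Hbb-bs between 7044 and 26706 TPM. In bulk RNA, fewer cells of a type and less RNA per cell cannot be told apart, and the cells that contributed the histone messages are not identified by these libraries.

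Replicate 1 of the day 7 contralateral group stood apart from the other libraries. Its TMM factor was 0.696, its 10 most abundant genes took 42.5% of the counts, and 3.90% of its counts fell on transcripts that could not be matched to the annotation, the highest values of the 18 libraries for the last 2 measures and the lowest for the first. Among histone genes, 15 of the 17 H2B genes with more than 3 counts in any library had their lowest level of all 18 libraries there, and 8 of 13 H4 genes and 5 of 6 H1 genes had their highest. The H2B gene Hist1h2bk stood at 51.0 CPM in it and at 345 and 411 CPM in the other day 7 contralateral libraries. The numbers of histone genes called in comparisons that used this group are therefore given with and without this library.

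The annotated transcripts of 44 of the 67 genes hold the 3′ stem-loop, found as a stem of 6 base pairs that begins GG and closes with CC around a loop of 4 bases that begins TT, against 0.277% of 58411 coding transcripts of other genes. The annotated models of the other 23 genes had no match. Some of these are short, such as that of Hist1h4k (312 bases), and others are long, such as that of Hist2h2be (2620 bases). A model that stops before the 3′ end cannot hold the stem-loop, so that no match does not show that a gene lacks it. The sequences below are shown because the stem of the H4 genes differs from that of the other classes. The 16 bases of stem and loop are in capitals and the flanks in lower case, 5′ to 3′ on the transcript strand, from GENCODE transcripts of GRCm38.
Hist1h1c (H1): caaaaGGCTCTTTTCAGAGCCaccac
Hist1h2ab (H2A): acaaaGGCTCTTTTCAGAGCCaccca
Hist1h2ad (H2A): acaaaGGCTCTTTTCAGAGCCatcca
Hist1h2bk (H2B): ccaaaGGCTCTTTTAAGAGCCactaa
Hist1h3b (H3): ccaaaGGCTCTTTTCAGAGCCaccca
Hist1h4f (H4): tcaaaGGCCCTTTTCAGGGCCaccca
Hist1h4j (H4): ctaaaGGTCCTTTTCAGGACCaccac
Hist2h4 (H4): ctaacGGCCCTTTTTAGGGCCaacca
The form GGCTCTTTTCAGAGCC was found in 26 genes of the H1, H2A, H2B and H3 classes and in 2 other coding transcripts. None of the 11 H4 genes with a stem-loop had it. Of these, 7 had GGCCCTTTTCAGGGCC, and 2 each had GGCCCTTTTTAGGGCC and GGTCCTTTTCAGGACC. In 22 genes the annotated model runs more than 100 bases past the stem-loop, so that counts of those genes can include longer transcripts.

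Promoter sequences also set H4 genes apart from the other classes. RefSeq promoters of GRCm38.p6, which run from 250 bases before to 50 bases after the start, were matched for 62 of the 67 genes. The motif CCAAT, read on either strand, was present in every matched H1, H2A, H2B and H3 promoter but in 3 of 12 H4 promoters, against 37.9% of all 27025 promoters. The octamer ATTTGCAT, on either strand, was found in 7 of 18 H2A and 6 of 16 H2B promoters and in none of the matched H1, H3 and H4 promoters, against 1.75% of all promoters. TATAAA, on either strand, was found in 56.5% of histone promoters and 14.2% of all. Both windows below lie between an H2A and an H2B gene transcribed in opposite directions, and each falls in the promoters of both genes. They are given on the strand of the H2B gene, with the octamer in capitals.
Hist1h2bg and Hist1h2ae, chr13:23571330-23571359, plus strand: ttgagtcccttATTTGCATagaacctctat
Hist1h2bk and Hist1h2ah, chr13:22035780-22035809, plus strand: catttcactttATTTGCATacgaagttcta
Such divergent pairs were common. In 13 cases the starts of a pair lay within 1000 bases of each other, and 12 of these joined an H2A to an H2B gene at 176 to 306 bases. A match of letters is a description of these windows and not evidence of binding.

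On the TPM scale, histone messages were among the most abundant in the tissue. By mean TPM, 26 of the 67 genes ranked within the first 100 of 49184 genes, and 2 (Hist1h2aa and Hist1h2ba) never passed 3 counts in any library. The Hist1 cluster on chromosome 13 (chr13:21715763-23934851, GRCm38) holds 54 of the genes, Hist2 on chromosome 3 holds 10, Hist3 on chromosome 11 holds 2 and Hist4 on chromosome 6 holds 1. Within the H4 class the highest mean TPM belonged to Hist1h4k (1060 TPM) and Hist1h4f (954 TPM). In the other classes it belonged to the H2A genes Hist2h2aa1 (899 TPM) and Hist1h2ak (759 TPM), the H3 genes Hist2h3b (744 TPM) and Hist1h3i (520 TPM), the H2B genes Hist1h2bk (639 TPM) and Hist2h2bb (513 TPM), and the H1 genes Hist1h1a (421 TPM) and Hist1h1b (377 TPM). This order depends on the annotated length, by which TPM divides. Hist1h4k, with a model of 312 bases, had a mean of 7375 counts. Hist1h1c, an H1 gene with a model of 1560 bases, had a mean of 21904 counts but 329 TPM.

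On day 7 after rupture, histone messages were lower in injured than in naïve knees, and the genes called were of the H2A, H2B and H3 classes. Of the 65 genes that passed the filter on low counts, 21 were lower by 1.5-fold or more with an FDR under 0.05 (edgeR quasi-likelihood test over 21129 genes) and 0 were higher, where 6.11% of all genes tested were lower and 10.4% were higher. Without the fold limit 31 were lower, against 11% of all genes. No histone gene was higher by DESeq2 or limma-voom either. By class, 12 of 17 H2A genes, 5 of 12 H3 genes, 4 of 17 H2B genes, 0 of 6 H1 genes and 0 of 13 H4 genes were called. Of the H1 and H4 genes, 2 each had an unadjusted p under 0.05, as did 8679 of all 21129 genes, and DESeq2 and limma-voom called 0 in both classes. The median log2 fold change was −0.64 for H2A, −0.55 for H3, −0.48 for H2B, −0.35 for H1 and −0.19 for H4, and −0.04 over all genes tested, and differences between classes were not tested. Of the 65 genes, 63 lay below 0, and 22 had all day 7 injured libraries below all naïve ones, against 10.8% of all genes. The count rests in part on single libraries. It was 4 without day 7 injured replicate 3, 13 without day 7 injured replicate 2 and 11 without naïve replicate 3, while the median over the histone genes stayed between −0.57 and −0.40 whichever library of these groups was left out. For fits that leave out 1 library, the share of all genes called is given only without day 7 contralateral replicate 1. Other such counts, here and below, are given without a share of all genes. They therefore do not tell a change particular to histone genes from a change in calls over all genes.

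**Figure D1:**
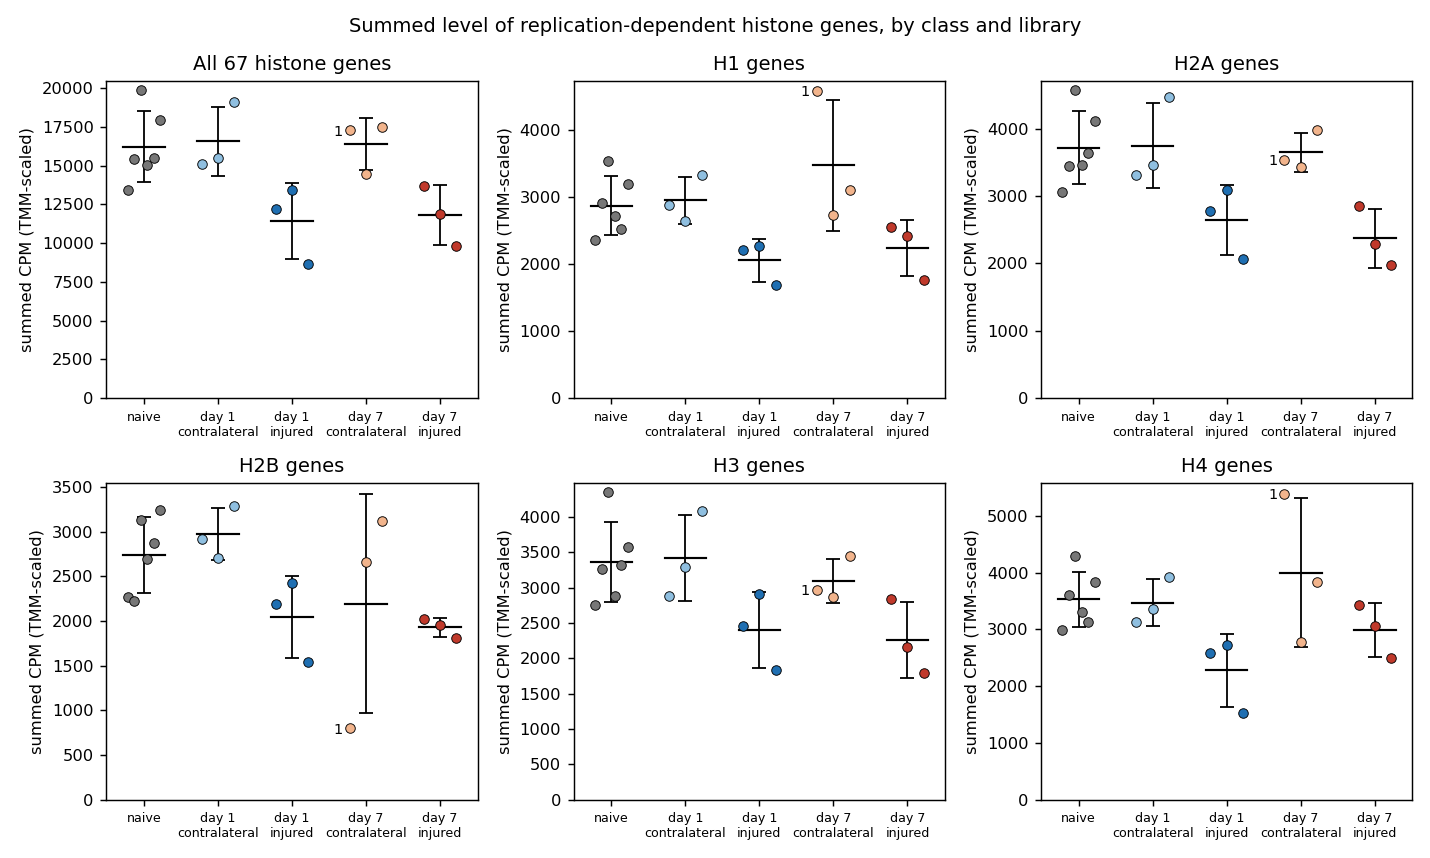
Summed TMM-scaled CPM of all 67 histone genes and of each class, for each library (points), with the group mean (line) and SD (bar), n = 6 naïve libraries and 3 in each other group. The numeral 1 marks day 7 contralateral replicate 1. Day 7 injured libraries lie below every naïve library for H2A and H2B, whereas for H4 they overlap the naïve range.

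Summed over the 67 genes, the level was 13450 CPM in the lowest, 15472 CPM in the median and 19893 CPM in the highest naïve library. In day 7 injured knees it was 13691, 11877 and 9841 CPM. Only replicate 1 of these reached the naïve range, by a narrow margin above its lowest library. As summed TPM, the day 7 injured libraries stood at 12377 ± 245 TPM (SD, n = 3) and the naïve libraries at 21347 ± 4171 TPM (SD, n = 6). The TPM scale depends on abundant noncoding RNA, since protein-coding genes took between 12.2% and 37.4% of TPM across libraries. The ratio of day 7 injured to naïve means was 0.58 by TPM, 0.728 by CPM and 0.723 by TPM over protein-coding genes alone.

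Among H2A genes, Hist1h2ab was called with the smallest FDR. Its level was 323 CPM in the lowest, 334 CPM in the median and 423 CPM in the highest naïve library. In day 7 injured knees it was 238, 198 and 182 CPM, with no overlap, a log2 fold change of −0.77 ± 0.14 (SE, FDR = 0.00095, edgeR). Hist1h2ai gave 192, 215 and 257 CPM as the lowest, median and highest naïve value. It was at 150, 131 and 102 CPM in day 7 injured knees, again with no overlap and a log2 fold change of −0.78 ± 0.17 (FDR = 0.0026, edgeR). Hist1h2ad, a gene paired head to head with the H2B gene Hist1h2bf, ranged from 39.9 to 91.7 CPM in naïve knees (median 68.8 CPM). Day 7 injured libraries held 34.9, 24.2 and 27.9 CPM, all below the naïve range, and the log2 fold change was −1.15 ± 0.26 (FDR = 0.0039, edgeR). The abundant Hist1h2ak was at 277, 209 and 165 CPM in day 7 injured knees against 264 to 420 CPM in naïve knees (median 327 CPM), so that replicate 1 overlapped the naïve range. Its log2 fold change was −0.64 ± 0.17 (FDR = 0.0111, edgeR). The other called H2A genes of the Hist1 cluster, apart from Hist1h2ao, had log2 fold changes from −0.66 to −0.61.

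Hist2h2aa1, the most abundant H2A gene, was called at −0.94 ± 0.24 (FDR = 0.0075, edgeR), but its level cannot be separated from that of its twin or of predicted genes. All 31-base words of Hist2h2aa2 are present in Hist2h2aa1, and all words of Hist2h2aa1 and Hist2h2aa2 are also present in Gm20633 and Gm20634 respectively. In naïve replicate 5, Hist2h2aa2 was listed at 0 and Hist2h2aa1 at 926 CPM, whereas in day 7 injured replicate 2 they were at 314 and 306 CPM. Added together, the pair gave 854 to 1316 CPM in naïve knees and 796, 620 and 578 CPM in day 7 injured knees. The groups did not overlap, and the log2 fold change of the sum was −0.58 ± 0.165 (FDR = 0.0158, edgeR), just under the 1.5-fold limit, but the sum is not separable from those predicted genes either. Hist1h2ao shares 93.8% of its words with Hist1h2ap and was assigned 0 counts in every day 7 injured library and between 0 and 23.3 counts in naïve libraries, so that no fold is given for it. Hist1h2ap, which received nearly all of the counts of that pair, was at 388, 259 and 225 CPM in day 7 injured knees against 323 to 602 CPM in naïve knees (median 487 CPM). Its log2 fold change was −0.66 ± 0.21 (FDR = 0.0272, edgeR), and that of the sum of both genes was the same to 2 decimals.

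Of the H2B genes, Hist1h2br, Hist1h2bf, Hist1h2bm and Hist1h2bk were called. Hist1h2bk, the most abundant, was at 293 CPM in the lowest, 366 CPM in the median and 433 CPM in the highest naïve library. In day 7 injured knees it was at 247, 251 and 231 CPM, all below the naïve range, a log2 fold change of −0.59 ± 0.15 (FDR = 0.00997, edgeR). Hist1h2br, the H2B partner of Hist1h2ap, fell by 1.12 on the log2 scale (SE 0.26, FDR = 0.0047, edgeR), from a naïve median of 165 CPM to 85.7, 59.1 and 58.4 CPM, of which the first lay within the naïve range of 84.4 to 195 CPM. Some H2B genes stayed closer to the naïve level. Hist2h2bb, which shares all of its words with the predicted gene Gm20628, was at 187, 220 and 152 CPM against 171 to 247 CPM. Its log2 fold change was −0.10 ± 0.18 (FDR = 0.698, edgeR). Hist1h2bc and Hist2h2be, which belong to the histone genes known to make polyadenylated messages as well, passed the FDR but not the 1.5-fold limit, at −0.48 ± 0.14 (FDR = 0.0166, edgeR) and −0.41 ± 0.13 (FDR = 0.0256, edgeR).

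Hist1h3b, Hist1h3c, Hist1h3d, Hist1h3e and Hist1h3g were the called H3 genes. Hist1h3b was at 358, 430 and 687 CPM in the lowest, median and highest naïve library and at 342, 255 and 208 CPM in day 7 injured knees. The groups did not overlap, and the log2 fold change was −0.78 ± 0.21 (FDR = 0.0133, edgeR). Hist1h3e was at 298 to 483 CPM (median 373 CPM) in naïve knees and at 275, 224 and 185 CPM in day 7 injured knees, a log2 fold change of −0.70 ± 0.18 (FDR = 0.0080, edgeR), and Hist1h3d changed by −0.66 ± 0.17 (FDR = 0.0072, edgeR). Hist2h3b and Hist1h3i, the most abundant H3 genes by TPM, were not called, at −0.38 ± 0.20 (FDR = 0.161, edgeR) and −0.47 ± 0.19 (FDR = 0.0757, edgeR).

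None of the 6 H1 genes or 13 H4 genes was called against naïve knees at day 7. Hist1h1c, an H1 gene that also makes a polyadenylated message, was at 749, 900 and 1133 CPM in the lowest, median and highest naïve library. It was at 823, 708 and 547 CPM in day 7 injured knees, with a log2 fold change of −0.41 ± 0.15 (FDR = 0.0569, edgeR), where the first value alone lay within the naïve range. Hist1h1a and Hist1h1b, H1 genes of dividing cells, were at −0.33 ± 0.19 (FDR = 0.209, edgeR) and −0.37 ± 0.17 (FDR = 0.109, edgeR). Among H4 genes, Hist1h4k was at 239, 304 and 397 CPM in the lowest, median and highest naïve library. It held 301, 294 and 228 CPM in day 7 injured knees, 2 of them within that range, with a log2 fold change of −0.17 ± 0.18 (FDR = 0.501, edgeR). Hist1h4f was at 359 to 474 CPM (median 406 CPM) in naïve knees and at 401, 385 and 291 CPM in day 7 injured knees, a log2 fold change of −0.17 ± 0.17 (FDR = 0.473, edgeR). The only gene of the Hist4 cluster, Hist4h4, was at 77.9, 89.1 and 75.3 CPM against 72.6 to 90.9 CPM, wholly inside the naïve range (−0.03 ± 0.16, FDR = 0.892, edgeR). In the Hist3 cluster, Hist3h2a was at −0.53 ± 0.21 (FDR = 0.0664, edgeR) and Hist3h2ba at −0.50 ± 0.17 (FDR = 0.0412, edgeR), which misses the 1.5-fold limit.

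**Figure D2:**
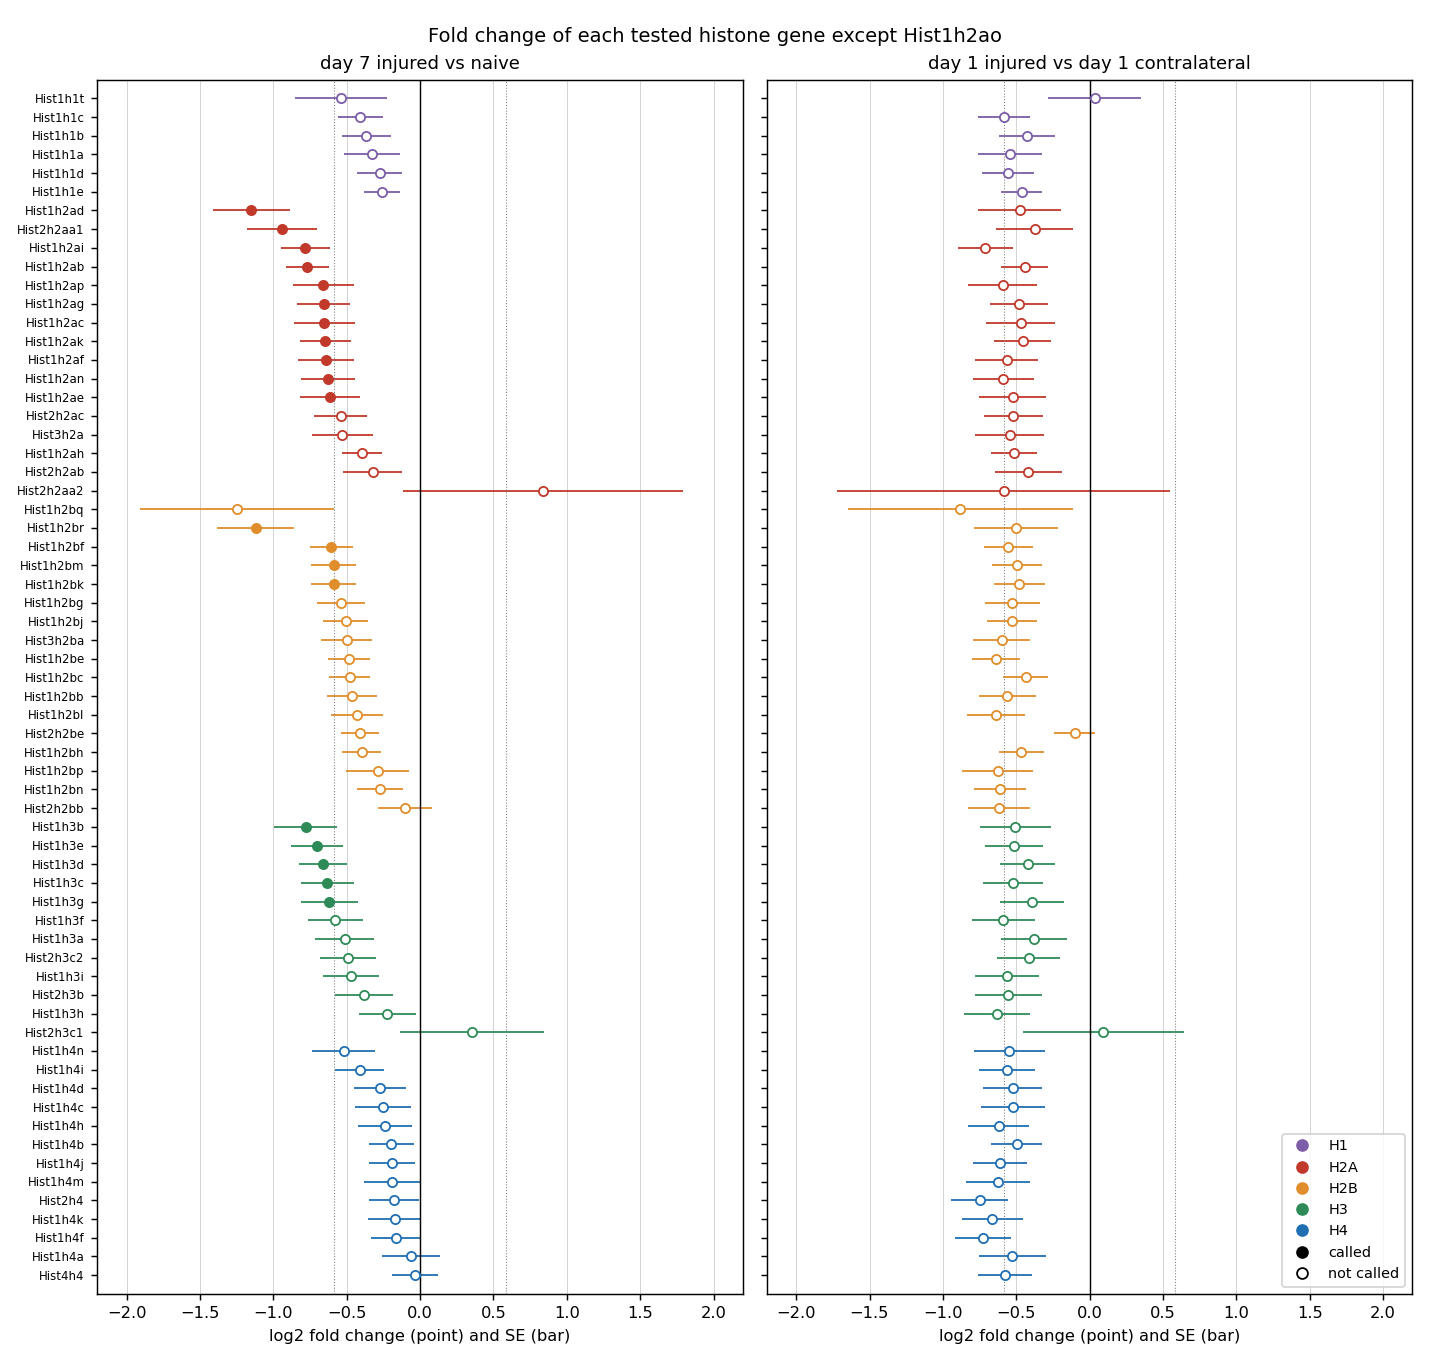
Log2 fold change (point) and SE (bar) of 64 tested histone genes, coloured by class, for day 7 injured versus naïve knees (left) and day 1 injured versus day 1 contralateral knees (right). Filled points passed an FDR of 0.05 and 1.5-fold (dotted lines). At day 7 the calls lie in the H2A, H2B and H3 classes and the H4 median (−0.19) is the class median nearest to 0, whereas at day 1 no gene was called and the H4 median was −0.58.

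The balance between classes shifted with these values. H4 genes made up 25.0%, 25.7% and 25.3% of the summed histone CPM in the day 7 injured libraries, above every naïve library (20.2% to 23.4%, median 21.8%). H2A genes made up 20.8%, 19.3% and 20.1%, below every naïve library (22.3% to 23.5%, median 23.0%). The ratio of summed H4 to summed H2A was therefore 1.2, 1.34 and 1.26 in day 7 injured knees and 0.862 to 1.05 in naïve knees. It was 0.743 to 0.931 in day 1 injured, 0.878 to 0.969 in day 1 contralateral and 0.810 and 0.962 in the day 7 contralateral replicates 2 and 3, so that the day 7 injured libraries stood above all of these. Day 7 contralateral replicate 1 alone was higher, at 1.52. Signs of library composition moved with the ratio. The TMM factors of the day 7 injured libraries were 0.829 to 0.852 and their 10 most abundant genes took 26.4% to 29.8% of the counts, which lay between the values of that replicate and those of all other libraries (at least 0.962 and at most 25.9%). Their part in the ratio was not tested. The ratio was not tested because the genes were grouped with earlier results known. Of the 67 genes, 5 share any 31-base word with one of another class, and of these Hist1h1e and Hist1h2be, which overlap, share more than 1% of their words that way. Many words are shared with genes outside the 67, as in Hist1h2ai (89.3%), Hist2h2aa1 (100%) and Hist1h4f (12.5%), so that reads can enter or leave a class sum, and the part of this in the ratio was not tested.

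**Figure D3:**
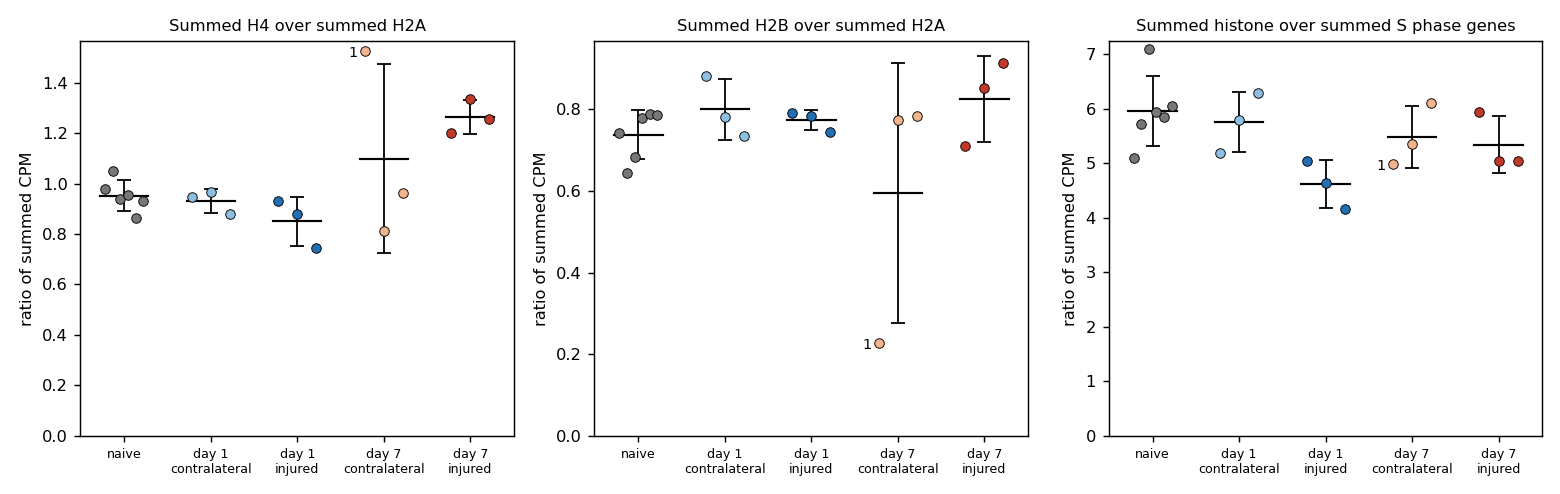
Ratios of summed TMM-scaled CPM in each library (points), with group mean (line) and SD (bar): H4 over H2A, H2B over H2A, and all histone genes over 31 genes of S phase and DNA replication. The numeral 1 marks day 7 contralateral replicate 1, which has the highest H4 over H2A ratio (1.52) and the lowest H2B over H2A ratio (0.227). Day 7 injured libraries lie above all naïve libraries for H4 over H2A.

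Compared with the contralateral knees of day 7, 11 of 65 histone genes were lower in injured knees and 0 were higher (edgeR over 21262 genes), where 3.23% of all genes were lower and 9.33% higher. DESeq2 and limma-voom gave 0 higher too. The called genes were 8 of 17 H2A genes, the H1 genes Hist1h1c and Hist1h1d, and Hist1h4i. Hist1h2ac, an H2A gene, was at 61.6, 58.8 and 67.4 CPM in contralateral knees and at 45.1, 28 and 34 CPM in injured knees, a log2 fold change of −0.81 ± 0.22 (FDR = 0.0167, edgeR) with no overlap. Hist1h1d was at 1094, 476 and 563 CPM in contralateral and 443, 481 and 319 CPM in injured knees, so that its call (−0.78 ± 0.25, FDR = 0.0372, edgeR) contained the library that stood apart. Without that library 16 genes were lower, where 1.99% of all genes were, and they were 9 of 17 H2A and 7 of 17 H2B genes. None was an H1, H3 or H4 gene, and 6 of the 11 genes called with all libraries remained. The class medians without it were −0.68 for H2A, −0.56 for H2B, −0.47 for H3, −0.35 for H1 and −0.12 for H4. Other libraries also carried this comparison, as 18 genes were called without day 7 contralateral replicate 2, 3 without day 7 injured replicate 2 and 0 without day 7 injured replicate 3. No share of all genes is given for these fits. The comparison shares the day 7 injured libraries with the one against naïve knees.

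One day after rupture, no gene of any kind was called by edgeR, and the summed histone level was lower in injured than in contralateral knees by CPM but not apart by TPM. The summed level was 12214, 13407 and 8658 CPM in day 1 injured knees and 15115, 15472 and 19099 CPM in day 1 contralateral knees, with no overlap. By TPM it was 19997, 24494 and 19107 in injured and 27481, 23285 and 26785 in contralateral knees, which overlap. Against the contralateral knees, 0 of 65 histone genes and 0% of all 21129 genes were called by edgeR, and 0 histone genes by DESeq2 or limma-voom. At an unadjusted p under 0.05, edgeR listed 50 of the 65 histone genes and 1383 of all genes. The smallest FDR of any histone gene was 0.755. Of the 65 genes, 62 lay below 0 with a median log2 fold change of −0.53, and in 42 every injured library was below every contralateral one, against 6.07% of all genes. All 13 H4 genes were among these 42.

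Hist2h4, an H4 gene of the Hist2 cluster, had the lowest log2 fold change of its class against day 1 contralateral knees, where the H4 median was −0.58. It was at 211, 228 and 132 CPM in day 1 injured knees and at 292, 304 and 363 CPM in day 1 contralateral knees, a log2 fold change of −0.75 ± 0.19 that did not pass (FDR = 0.755, edgeR). Hist1h2ai was at 181, 188 and 117 CPM against 228, 245 and 322 CPM, a log2 fold change of −0.71 ± 0.19 (FDR = 0.755, edgeR), where the H2A median was −0.52. Replicate 3 was the lowest day 1 injured library for both genes, and 23 of the 65 histone genes with more than 3 counts in any library, 12 of them H4 genes, had their lowest level of all 18 libraries in it. Against naïve knees, 0 of 65 genes were called by edgeR or limma-voom and 9 by DESeq2, with 51 at an unadjusted p under 0.05 by edgeR and a median log2 fold change of −0.50. Of all 21129 genes, 959 had an unadjusted p under 0.05, 0% were called by edgeR and 15 were called lower by DESeq2. In 20 histone genes every day 1 injured library was below every naïve one, against 1.01% of all genes. By summed TPM in place of CPM, the day 1 injured mean was 0.993 of the naïve mean, against 0.704 by CPM, so that this difference depends on the scale.

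**Figure D4:**
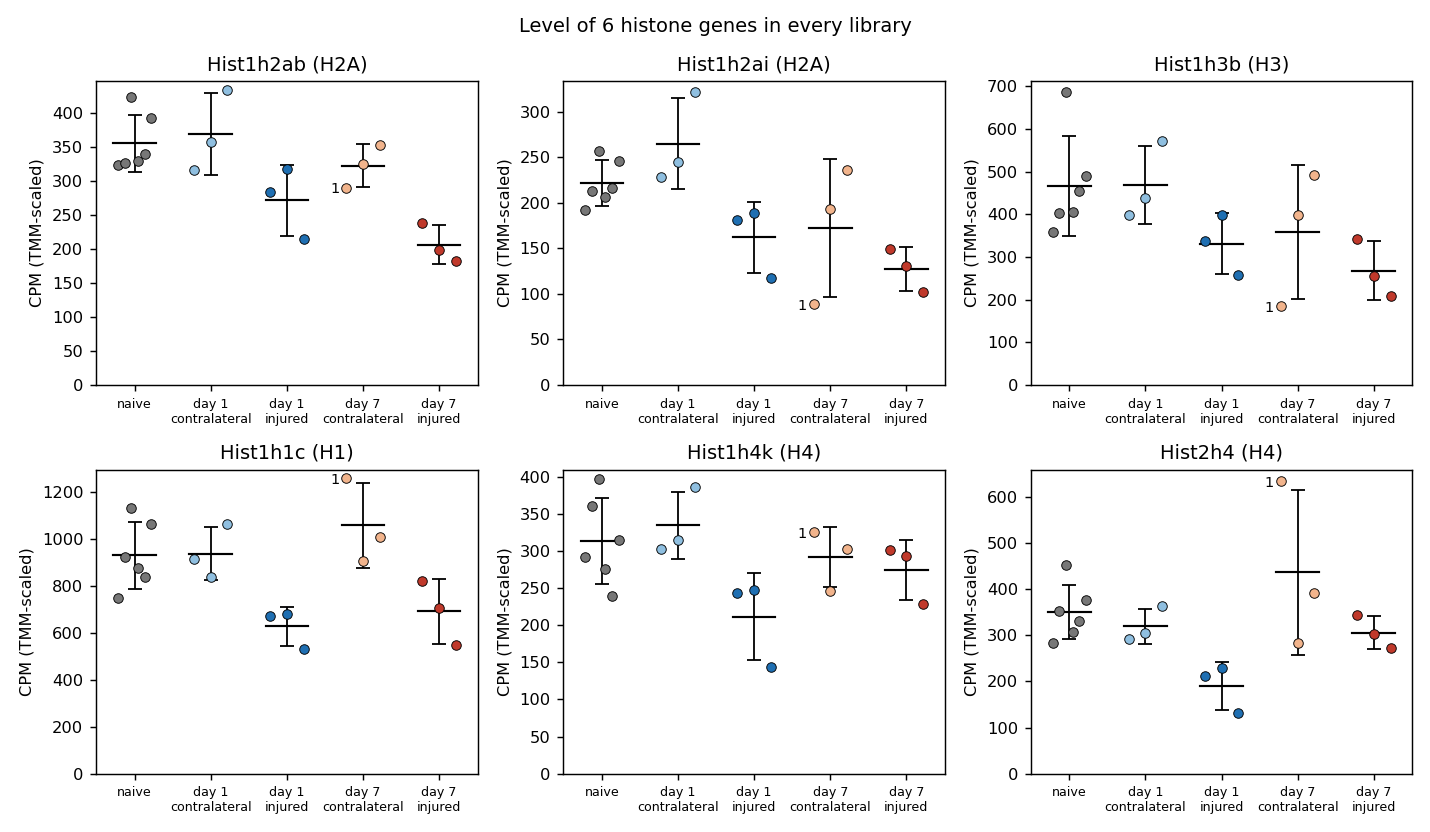
TMM-scaled CPM of 6 histone genes in each library (points), with group mean (line) and SD (bar), n = 6 naïve libraries and 3 in each other group. The numeral 1 marks day 7 contralateral replicate 1. Hist1h2ab is at 182 to 238 CPM in day 7 injured and at 323 to 423 CPM in naïve knees, whereas Hist2h4 is at 132 to 228 CPM in day 1 injured and at 272 to 344 CPM in day 7 injured knees.

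By CPM the histone total was 11803 ± 1926 in day 7 and 11426 ± 2471 in day 1 injured knees (SD, n = 3 each), which overlap. By TPM it was 12377 ± 245 and 21200 ± 2887 (SD, n = 3 each), with no overlap, so that this comparison of totals depends on the scale. The median log2 fold change of day 7 over day 1 injured knees was 0.01 over 65 genes, 0.39 over the 13 H4 genes, all of which lay above 0, and −0.16 over the H2A genes. Hist2h4 was higher, at 344, 302 and 272 CPM on day 7 against 211, 228 and 132 CPM on day 1 (0.70 ± 0.19, FDR = 0.0169, edgeR), 1 of 65 genes, where 9.04% of all genes were. Leaving out either day 1 injured replicate 3 or day 7 injured replicate 1 removed this call, and 3 histone genes were called without day 1 injured replicate 2 or day 7 injured replicate 3. No share of all genes is given for those fits either. Hist1h2ao was the 1 gene called lower, where 6.38% of all genes were, on levels of at most 1.62 CPM. Testing whether injury changed a gene differently on the 2 days called Hist1h2ao and no other histone gene (0.245% of all genes were lower and 3.53% higher). Without day 7 contralateral replicate 1 no histone gene was called, and Hist1h2ao had an FDR of 0.0629 (edgeR). Uninjured knees gave no calls, as 0 of 65 genes differed between day 1 contralateral or day 7 contralateral and naïve knees (0% of all genes in each, edgeR), with 2 histone genes at an unadjusted p under 0.05 in each and 0 by DESeq2 or limma-voom. The median log2 fold change of day 7 contralateral over naïve knees was −0.07 with all libraries and −0.03 without day 7 contralateral replicate 1, where 0 genes were called as well.

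Genes that make, process and carry histones were followed beside the histone genes in day 7 injured against naïve knees, where 10.4% of all genes were higher and 6.11% lower. Of 13 genes for transcription, processing and decay of histone messages, 0 passed both limits by edgeR, DESeq2 or limma-voom, and 3 had an unadjusted p under 0.05 by edgeR, against 8679 of all 21129 genes. Slbp, the stem-loop binding protein, was at 72.9, 64.5 and 62.1 CPM against 74.3 to 95.0 CPM in naïve knees and passed the FDR but not the fold limit (−0.32 ± 0.09, FDR = 0.0195, edgeR). Npat, which activates histone genes in S phase, was at 0.08 ± 0.08 (FDR = 0.497, edgeR). Of 17 chaperone genes 1 was higher, Ipo4 (0.73 ± 0.20, FDR = 0.0126, edgeR), an importin of histones. Among 11 replication-independent variants 3 were higher and 0 lower. H1f0, the linker histone of non-dividing cells, rose from 35.6 to 42.7 CPM in naïve knees to 70.2, 75.7 and 87.1 CPM (1.00 ± 0.08, FDR = 5.2e-07, edgeR), H2afy2 by 0.98 ± 0.17 and H1fx by 0.84 ± 0.18, while H2afz and H3f3b were at −0.11 ± 0.16 and 0.13 ± 0.10 and were not called.

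Cell cycle genes lay below the naïve level as well, but none passed both limits against naïve knees by edgeR, DESeq2 or limma-voom. Of 31 genes of S phase and DNA replication, 31 lay below 0 (median −0.32), 22 had an unadjusted p under 0.05 and 13 passed the FDR alone (edgeR). Of 20 genes of G2 and mitosis, 20 lay below 0 (median −0.26), 16 had an unadjusted p under 0.05 and 10 passed the FDR alone (edgeR). Over all 21129 genes, 8679 had an unadjusted p under 0.05 and 2331 were lower by the FDR alone. Against day 7 contralateral knees, 5 of the 31 S phase genes (Mcm5, Cdt1, Cdc6, Lig1 and Fen1) and 1 of the 20 G2 and mitosis genes (Birc5) were lower by edgeR, where 3.23% of all genes were. DESeq2 called 5 and 2 and limma-voom 5 and 1. These edgeR calls were lost without day 7 contralateral replicate 1, where the medians were −0.30 and −0.35. Mki67, a nuclear protein of cycling cells, was at 938, 1266 and 1058 CPM against 1340 to 1696 CPM (−0.46 ± 0.11, FDR = 0.0071, edgeR), Top2a at −0.27 ± 0.10 and Pcna at −0.16 ± 0.12. Summed histone CPM divided by the summed CPM of the S phase genes was 5.94, 5.05 and 5.03 in day 7 injured knees and 5.10 to 7.08 in naïve knees. In day 1 injured knees it was 5.04, 4.64 and 4.16, below every naïve library, and it was 5.19 to 6.28 in day 1 contralateral knees. Against day 1 contralateral knees, all 20 G2 and mitosis genes lay below 0 in day 1 injured knees (median −0.24) and 0 were called. Of these, 11 had an unadjusted p under 0.05 (edgeR), against 1383 of all 21129 genes. In 15 every injured library was below every contralateral one, against 6.07% of all genes. The S phase genes summed to 2421, 2892 and 2083 CPM in day 1 injured knees. In day 1 contralateral knees they summed to 2911, 2669 and 3043 CPM, so that the groups overlapped.

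Erythroid markers were lower in injured knees at day 7 as well. Of the 9 erythroid markers listed, 8 were in the files, none of them at 3 counts or fewer in all libraries, and 4 were lower and 0 higher in day 7 injured against naïve knees (median −0.61), among them Alas2, Slc4a1 and Hba-a1 (edgeR), where 6.11% of all genes were lower and 10.4% higher. Their summed level was 27502, 23390 and 16677 CPM in day 7 injured knees, 24504, 33994 and 19282 CPM in day 1 injured knees and 30796 to 41287 CPM in naïve knees. In day 1 contralateral knees it was 37168, 29948 and 39941 CPM. Replicate 3 was the lowest in both injured groups, as it was for the histone sum. Day 7 contralateral replicate 1 held the highest erythroid sum, at 64632 CPM. Neutrophil and marrow myeloid markers summed to 11219, 8610 and 8197 CPM in day 7 injured and 10337 to 15383 CPM in naïve knees, with 2 of 9 lower (S100a8 and S100a9, of which S100a8 is the most abundant of the list). Against day 7 contralateral knees, 5 of 8 erythroid and 2 of 9 neutrophil and marrow myeloid markers were lower and 0 higher (edgeR), where 3.23% of all genes were lower. Without day 7 contralateral replicate 1, 0 erythroid and 3 neutrophil and marrow myeloid markers were lower, where 1.99% of all genes were. The part of these markers in the histone result was not tested.

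Other marker lists are given for day 7 injured against naïve knees with the same shares of all genes, 10.4% higher and 6.11% lower, and counts of 1 gene in a list lie near these shares. Of 7 synovial and other fibroblast markers 3 were higher (Col14a1, Thy1 and Pdgfra), and their sum was 997, 1165 and 1240 CPM against 253 to 374 CPM. Chondrocyte markers summed to 7258, 8270 and 8182 CPM against 4196 to 7854 CPM, with 4 of 11 higher, among them Acan and Comp, and 2 lower, among them Cytl1. Endothelial markers gave 3 of 6 higher, osteoblast and osteocyte markers 1 of 7 higher and 2 lower, B lineage markers 1 of 10 lower, skeletal muscle markers 1 of 7 lower and macrophage markers 0 of 8 in either direction (edgeR, with 4 at an unadjusted p under 0.05, 0 by DESeq2 and 1 higher by limma-voom). Against day 7 contralateral knees, 4 of 7 fibroblast markers were higher and 0 lower (edgeR), where 9.33% of all genes were higher. Without day 7 contralateral replicate 1, 3 were higher, where 9.31% of all genes were. The part of these other markers in the histone result was not tested either.

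How far single histone genes can be read depends on the class. A median of 96.2% of the 31-base words of an H1 gene are found in no other gene, against 25.1% for H2A, 42.6% for H2B, 36.9% for H3 and 52.1% for H4, and 5 genes have no word of their own. Counts of a single gene with few words of its own depend on how the authors' software divided shared reads. When the genes that share at least 90% of their words were added together, in 4 pairs, 19 of 61 entries were lower at day 7 against naïve knees, where 6.11% of all genes were lower before the pairs were added. Of the pairs, Hist1h2ao with Hist1h2ap and Hist1h2bq with Hist1h2br were lower, and Hist1h4m with Hist1h4n (−0.31 ± 0.19, FDR = 0.246, edgeR) and the Hist2h2aa pair were not called.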

How the data were processed

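Reads of 18 libraries (TruSeq stranded total RNA, ribosomal RNA removed) were trimmed and pseudo-aligned by the authors with Kallisto, per the study's methods to the mouse transcriptome of GRCm38. The labels name GRCh38, whereas the deposited identifiers are those of mouse transcripts. The authors deposited estimated counts, TPM and effective lengths per transcript. Of 137436 transcripts, 135107 were matched to GENCODE M21. Estimated counts were summed per gene and rounded.

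Genes were tested with edgeR 4.0.16 (quasi-likelihood, R 4.3.3), with TMM, filterByExpr, group means and no covariates. Calls needed an FDR (Benjamini-Hochberg over all genes tested) up to 0.05 and a change of 1.5-fold or more. Comparisons without day 7 contralateral knees used 15 libraries and the others 18. SEs were the log2 fold change over the root of F. Kallisto divides reads between similar transcripts, which adds error that these SEs leave out. The study used limma-voom with a correlation between knees, which could not be repeated because labels do not pair libraries. It removed 1 ACL library that it does not name. No batch was named in the labels.

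Genes were named by rule: the 2 most abundant of each class, the 10 largest changes among calls at day 7 against naïve knees, up to 5 in each other comparison, those with polyadenylated messages, those of clusters Hist3 and Hist4, up to 3 called genes of each other list with its most abundant marker, and a few preset genes such as Slbp and Mki67. Others named fell outside it and were chosen after their values were seen. Members and lists were chosen with earlier results of these data known. Alternatives used limma 3.58.1 and DESeq2 1.42.0. The test was tried on simulated data.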

Additional observations from a re-analysis of the deposited data

Results flagged for a closer look

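In naïve knees, 64 values (levels of named histone genes, sums, shares and ratios) were checked for a library far from the other 5, and 6 were flagged, where chance flags about 1 in 20. Naïve replicate 3 was the source of 4. Its Hist3h2a level was 340 CPM (the other 5 held 186 to 239 CPM), its sum of the Hist3 cluster 386 CPM (215 to 274 CPM), its chondrocyte marker sum 7854 CPM (4196 to 5385 CPM), and its ratio of histone genes to replication-independent variants 12.8 (8.56 to 10.1). Naïve replicate 6 was flagged for the histone chaperone sum, 1669 CPM against 1523 to 1577 CPM. Naïve replicate 1 was flagged for a low macrophage marker sum, 505 CPM against 650 to 730 CPM.

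The injury effect differed between day 7 and day 1 for Hist1h2ao, with a fitted difference of −6.99 on the log2 scale (FDR = 0.0478, edgeR). Its counts were 0 in every day 7 injured library and its level was at most 1.62 CPM in any library, so that this number depends on the prior count and bounds nothing. The call was absent without day 7 contralateral replicate 1 (FDR = 0.0629, edgeR), and when this gene and Hist1h2ap, with which it shares 93.8% of its words, were added together.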

How the results depend on the processing

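In day 7 injured against naïve knees, the number of histone genes called lower was 21, and 17 to 28 with other scaling, filters, tools or offsets, 10 at an FDR of 0.01, and 4 to 27 with 1 library left out. Against day 7 contralateral knees it was 11, and 2 at an FDR of 0.01, 4 with a fit of only those groups, and 0 to 18 with 1 library left out. For day 7 over day 1 injured knees, 1 gene was higher, and 0 at an FDR of 0.01, 0 with all 18 libraries in the fit, and 0 to 3 with 1 library left out. The number lower was 1, and 2 without the fold limit, 0 with near-identical genes added together, and 1 to 2 with 1 library left out. The injury effect differed for 1 gene, and for 0 at an FDR of 0.01, by DESeq2, by limma-voom, with offsets for transcript length and with near-identical genes added together, and for 0 to 1 with 1 library left out. At day 1 against naïve knees DESeq2 called 9 lower, and every other setting 0. These counts under other settings are given without the share of all genes called under the same setting. That share can change with the setting as well, so that the counts do not describe the histone genes alone.

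The summed TPM relative to naïve knees was 1.21 in day 1 contralateral, 0.993 in day 1 injured, 0.871 in day 7 contralateral and 0.58 in day 7 injured knees. The value of 0.871 rests on day 7 contralateral replicate 1, which was at 7822 TPM. Day 7 contralateral replicates 2 and 3 were at 24019 and 23919 TPM, above the naïve mean of 21347 TPM. By CPM it was 1.02, 0.704, 1.01 and 0.728, and by TPM over protein-coding genes 1.00, 0.770, 0.903 and 0.723. The cause of these shifts was not tested. Of the named genes, 83 values kept their direction under all alternatives except Hist1h2ao (0.12 on day 7 over day 1 once added to Hist1h2ap), and calls were lost in 161 of the alternative fits of a named gene. The settings that add near-identical genes, or that fit day 7 injured and naïve knees alone, were chosen after seeing the data. No paired analysis was possible because the labels do not say which libraries share mice and the groups' replicate numbers only name samples.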
